A study of Mus musculus with 12 samples.

Results

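Sinusoidal uptake transporters are the carriers on the blood-facing membrane of the hepatocyte that bring bile acids, hormone conjugates, carnitine and drugs into the liver cell. The set described here holds 9 genes: Slco1a1, Slco1a4, Slco1b2, Slco2a1, Slco2b1, Slc10a1, Slc22a5, Slc22a7 and Slc22a30. Of these, Slco2a1 is known in endothelial cells. The genes were taken by name, with every probe set that the platform annotation gives to 1 of the 9 symbols alone. No measured value entered that rule, but the names were chosen with earlier results of these data known. That rule gave 21 of the 34945 probe sets that name a single gene. Of the 21, 19 passed the filter on low signals, and the other 2, 1 for Slco1b2 and 1 for Slco2b1, exceeded the array median on 1 array each. All 9 genes were among the 14102 tested of 18193 genes on the array, each through its brightest retained probe set, and those 9 probe sets lay above the array median on all 12 arrays.

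The arrays measured RNA of whole liver from female YAP fl/fl mice, aged 8 to 12 weeks when they were given an AAV8 vector. In the knockout (KO) the vector carried Cre under TBG, a promoter active in hepatocytes, so the other liver cells kept Yap1, the gene of the Hippo pathway co-activator YAP. In the control (WT) the vector carried GFP under the same promoter in mice with the same floxed alleles. TCPOBOP, a ligand of the nuclear receptor CAR and a hepatocyte mitogen, was given once in corn oil by oral gavage, 3 mg/kg, 10 days after the vector. Day 0 mice received the vector and no gavage. Per genotype there were 2 arrays for day 0, a single array of a pool for day 1 and 3 arrays for day 2. No group received corn oil alone, so TCPOBOP, gavage and time since the vector cannot be told apart in any comparison with day 0. The labels do not say that replicate arrays came from separate mice, and the p-values measure the spread between these arrays.

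The set spans 3 carrier families. The organic anion transporting polypeptides (the Slco genes) exchange bile acids, steroid and thyroid hormone conjugates, prostaglandins and many drugs across the membrane without sodium. Slc10a1 encodes NTCP, which carries conjugated bile acids into the hepatocyte together with sodium, and the Slc22 genes encode carriers of organic anions, cations and carnitine. In mouse liver, Slco1a1 is known as a gene with higher expression in males, and Slco1a4 as one with higher expression in females that is inducible by ligands of CAR and of the related receptor PXR.

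Values are MAS5 signal intensities, with array medians between 231.6 and 277. Yap1 signals ran from 449.6 to 796.7 on the 6 KO arrays and from 999.2 to 1306.3 on the 6 WT arrays, without overlap. Whether its probes lie in the deleted part is not stated in the sources used here. Of the 9 hepatocyte markers listed, 7 had a probe set, and all 7 passed the filter. The highest signal of an array was lower on the KO day 2 arrays (48217.1 to 67456.6) than on the WT day 2 arrays (103215.8 to 116917.6). The median difference over all genes at day 2, KO minus WT, was 0.09 on the log2 scale as deposited, 0.05 after quantile normalization and -0.08 after centring each array on its median. For the change in WT it was -0.11 as deposited and 0.02 after centring. The share of called genes that were higher moved with the centring, from 57.5% to 76.1% in WT, from 43.3% to 14.6% between the genotypes at day 2 and from 34.5% to 14% for the difference between the responses.

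Most of the uptake carriers were lower 2 days after TCPOBOP. In WT, Slco1a1, Slco2b1, Slc10a1, Slc22a7 and Slc22a30 fell, 5 of the 9 members, where 5.38% of all genes tested were called lower. In KO, Slco1a1, Slco2b1, Slc22a7 and Slc22a30 fell, 4 of the 9, against a background of 4.49%. These 4 were called lower in both genotypes, as were 1.55% of all genes; both changes are set against day 0 arrays of their own genotype. By limma no member was called higher in either genotype, against 7.26% of all genes in WT and 4.2% in KO, and at an unadjusted p under 0.05 no member was higher in WT (12.7% of all genes were) and 2, Slco1a4 and Slc22a5, were higher in KO (11.9% of all genes). The median change of the 9 members was -0.46 in WT and -0.54 in KO on the log2 scale, beside -0.11 and 0.05 over all genes; after quantile normalization it was -0.72 in WT and -0.53 in KO, so the order of the genotypes turned. All day 2 arrays lay below all day 0 arrays for 7 members in WT, where 25.9% of all genes did so, and for 7 in KO, where 17.8% did; for the other 2 in KO, Slco1a4 and Slc22a5, they lay above, as for 22.6% of all genes.

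Hepatocyte markers moved in the same comparisons, by amounts that depended on the scaling. Their median change was 0.21 in WT and -0.77 in KO as deposited, and -0.02 and -0.08 after quantile normalization. The direction thus turned in WT and not in KO. As deposited, 3 of the 7 measured were called higher in WT, Alb (0.69), Apoa1 (0.54) and Serpina1c (0.65). In KO 5 were called lower, among them Alb (-0.84) and Apoa1 (-0.84). Over all genes, as deposited, 7.26% were called higher in WT and 4.49% lower in KO. After quantile normalization 2 of the 7 markers were called lower in WT and 1 in KO. Their summed signal was 359069.8 to 361804.2 at day 0 and 450826 to 527296.5 at day 2 in WT, and 407695.2 to 497469.2 and 248954.6 to 315022 in KO. Their part in the members' changes was not tested.

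**Figure D1:**
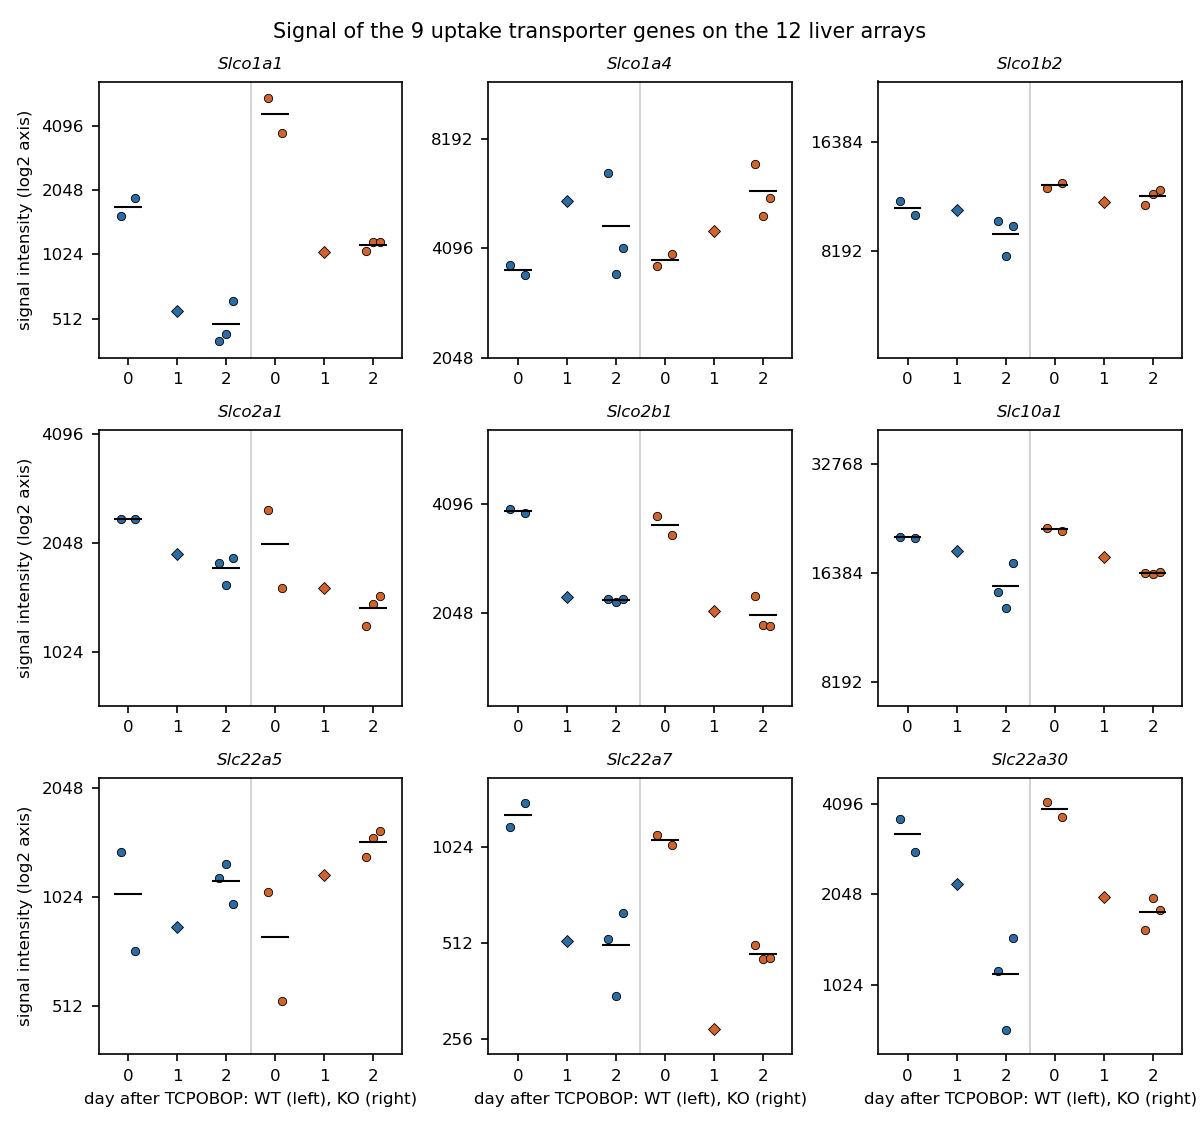
Signal intensity (log2 axis) of the representative probe set of each of the 9 genes on every array, by day after TCPOBOP, WT in blue on the left and KO in orange on the right; circles are replicate arrays, diamonds the day 1 pools, and bars the arithmetic means of the day 0 and day 2 groups. Slco1a1 at day 2 lay between 402.3 and 618.9 in WT and between 1057.9 and 1172.3 in KO, in each genotype below its day 0 arrays.

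The organic anion transporters of the Slco1 group differed most among themselves. Slco1a1, which carries bile acids and steroid conjugates, had signals of 1549.5 and 1881.6 at day 0 and of 402.3, 431.2 and 618.9 at day 2 in WT. The KO signals were 5546.7 and 3831.7 at day 0 and 1057.9, 1172.3 and 1166.8 at day 2. No day 2 array reached a day 0 array of its genotype, and at each of the 2 days no KO array overlapped a WT array. The order of the 4 groups was KO day 0, WT day 0, KO day 2 and WT day 2, and no neighbours in that order overlapped.

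Slco1a1 fell 3.51-fold in WT (log2 change -1.81 ± 0.21 SE, limma adjusted p = 0.000165) and 4.03-fold in KO (-2.01 ± 0.21, limma adjusted p = 0.000112). Folds here are on the scale of log2 of the intensity plus 16, which understates the change of dim probe sets. The call held in all 18 alternative settings in each genotype. The difference between these responses was -0.20 ± 0.29 and was not called (limma adjusted p = 0.725, 95% interval from -0.84 to 0.44). In whole liver, less RNA per cell and fewer cells that express a gene cannot be told apart, for this and every other member.

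The genotype difference of Slco1a1 was called at both days with its representative probe set, and the day 0 call was the less stable. At day 2 the KO level was 2.33-fold that of WT (1.22 ± 0.19, limma adjusted p = 0.0045), the 1 member called in that comparison; 3.99% of all genes were called higher there. At day 0 it was 2.68-fold (1.42 ± 0.23, limma adjusted p = 0.033), again the 1 member called, and 0.0638% of all genes were called higher. The day 0 call rests on 2 arrays a group. It was lost when WT day 0 replicate 1 was left out (limma adjusted p = 0.179), or WT day 0 replicate 2 (0.150), or KO day 0 replicate 1 (0.065), with values from 1.16 to 1.69 over the arrays left out. It was also lost without 5 of the 6 day 2 arrays, which enter this comparison through the shared spread (adjusted p from 0.055 to 0.0697). Over 17 alternatives, leaving out its own arrays included, the limma adjusted p ran from 0.0294 to 0.475.

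A second probe set of Slco1a1 was dimmer and passed the array median on 5 of the 12 arrays. It had day 0 signals of 353.6 and 336 in WT and of 2661 and 1251.9 in KO. Its day 2 signals were 58.6, 40.3 and 249.3 in WT and 116.6, 84.9 and 68.8 in KO. At day 0 the KO arrays lay above the WT arrays, as with the brighter probe set, and at day 2 the genotypes overlapped, unlike it. With every retained probe set tested, it fell in KO (-4.14 ± 0.62, limma adjusted p = 0.00187), and in WT its change was -1.80 ± 0.62 (limma adjusted p = 0.0859). Its day 2 genotype difference was 0.01 ± 0.55. With the mean of both probe sets, the day 2 genotype difference was 0.62 and was not called (limma adjusted p = 0.258), and the day 0 difference was 1.89 (limma adjusted p = 0.160). The day 2 call held in the other 18 of 19 alternatives, with a limma adjusted p from 0.00149 upward.

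**Figure D2:**
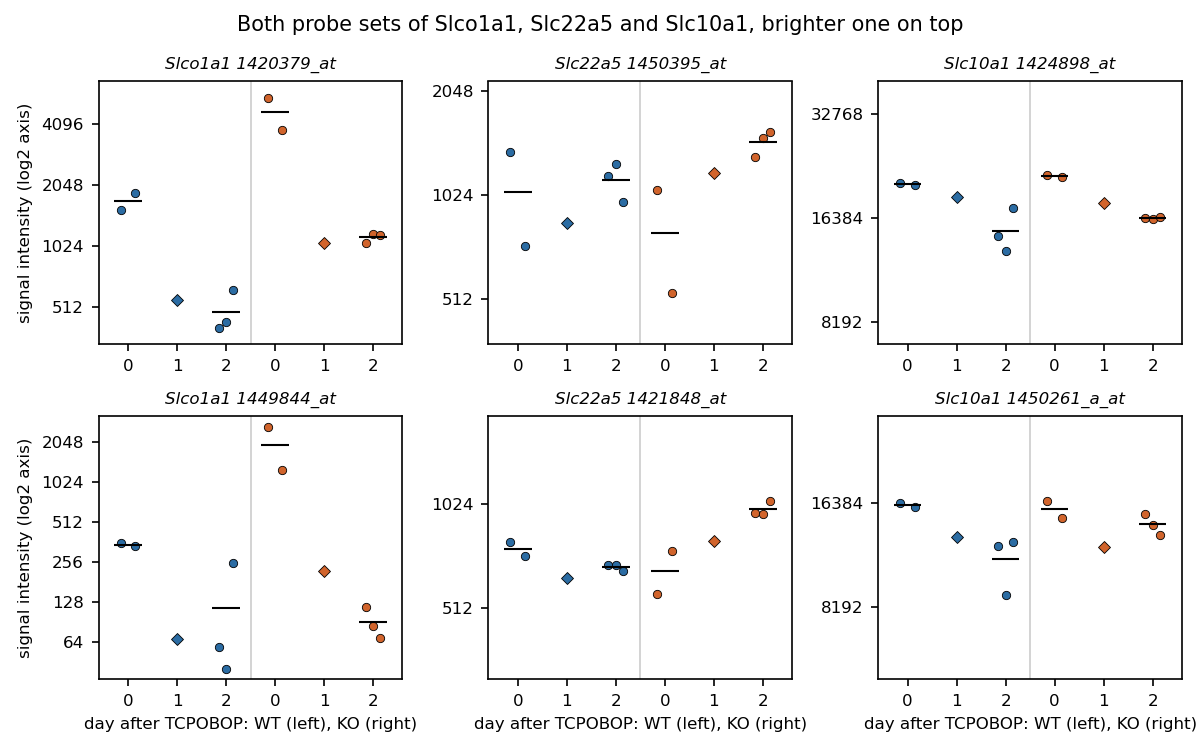
Signal intensity (log2 axis) of both probe sets of Slco1a1, Slc22a5 and Slc10a1 on every array, by day after TCPOBOP, brighter probe set on top; WT is in blue on the left, KO in orange on the right, diamonds are the day 1 pools and bars arithmetic means. The dimmer Slco1a1 probe set spans 40.3 to 2661 units, with its WT and KO arrays apart at day 0 and mixed at day 2.

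Slco1a4, the neighbouring gene of Slco1a1 and likewise a carrier of bile acids and drugs, did not share the fall. Its signals were 3691.1 and 3457.5 at day 0 and 6603.2, 3477.3 and 4089.9 at day 2 in WT. In KO they were 3662.1 and 3949.2 at day 0 and 6977.3, 5039 and 5639.3 at day 2. The WT groups overlapped, with 1 high array at day 2, and the KO groups did not. The change was 0.35 ± 0.23 in WT (limma adjusted p = 0.363) and 0.61 ± 0.23 in KO (limma adjusted p = 0.131), with 95% intervals from -0.15 to 0.85 and from 0.12 to 1.11. The value in KO was called without WT day 2 replicate 1 (limma adjusted p = 0.0363), the high array; without it the day 2 genotype difference was called too (0.63, limma adjusted p = 0.0449).

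RefSeq (GRCm38.p6) places Slco1a4 and Slco1a1 next to each other on chromosome 6, on the same strand. The Slco1b2 gene lies on their far side, past Gm5724. The 250 bases before their start sites, and those before Slc22a30, which also fell, are shown because Slco1a1 and Slco1a4 are adjacent genes of 1 family with different changes. RefSeq had a promoter entry for 8 of the 9 members, with 11 start sites; Slc22a7 is the other member. Capitals mark matches to the motifs given after the sequences, on either strand.
Slco1a1, chr6:141946963-141947212, minus strand: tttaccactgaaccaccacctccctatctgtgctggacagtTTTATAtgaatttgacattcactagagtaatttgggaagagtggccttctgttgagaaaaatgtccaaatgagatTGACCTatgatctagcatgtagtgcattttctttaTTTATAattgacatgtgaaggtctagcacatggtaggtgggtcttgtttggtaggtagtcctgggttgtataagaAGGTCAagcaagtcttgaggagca
Slco1a4, chr6:141856221-141856470, minus strand: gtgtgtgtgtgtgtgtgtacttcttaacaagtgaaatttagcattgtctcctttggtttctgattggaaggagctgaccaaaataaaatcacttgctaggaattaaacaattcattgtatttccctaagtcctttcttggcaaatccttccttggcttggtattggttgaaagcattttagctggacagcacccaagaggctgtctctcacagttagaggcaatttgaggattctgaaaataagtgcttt
Slc22a30, chr19:8405106-8405355, minus strand: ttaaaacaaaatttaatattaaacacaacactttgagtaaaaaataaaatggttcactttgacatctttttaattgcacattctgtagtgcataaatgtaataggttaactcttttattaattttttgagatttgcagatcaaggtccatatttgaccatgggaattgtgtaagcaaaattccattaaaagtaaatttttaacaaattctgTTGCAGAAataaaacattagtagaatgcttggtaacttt

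The motifs searched on both strands were the nuclear receptor half-sites AGGTCA and AGTTCA, the HNF1 half-site GTTAAT, the TATA box letters TATAAA, the C/EBP core TTGCNNAA, the antioxidant response core TGACNNNGC and the TEAD site GGAATG, TEAD being the DNA-binding partner of YAP. Of 32851 windows of this length in the table, 14% held AGGTCA, 11.8% AGTTCA, 6.43% GTTAAT, 12.4% TATAAA, 9.56% TTGCNNAA, 10.2% TGACNNNGC and 12.6% GGAATG. The Slco1a1 window held AGGTCA 2 times, 19 to 24 bases before the start on the gene's strand and 129 to 134 bases before it on the other, and TATAAA 2 times on the other strand. The Slco1a4 window held none of the 7 motifs, and the Slc22a30 window held 1 C/EBP core, 32 to 39 bases before the start. No matches overlapped. Among the windows not shown, that of Slco1b2 held both half-sites and GTTAAT 1 time each and TATAAA 2 times, and that of Slco2a1 held TATAAA 1 time. Of the 3 start sites of Slco2b1, 2 had a GGAATG and 1 of those an AGTTCA as well. Of the 2 of Slc10a1, 1 had TATAAA and the other AGGTCA and a C/EBP core, and the Slc22a5 window held none of the 7 motifs. These matches are letters in a window and were not tested as binding sites.

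Slco1b2 encodes a liver-specific organic anion transporter, which takes up bile acids, bilirubin and drugs such as statins. Its signals were 11292.8 and 10320.8 at day 0 and 9903.7, 7934.9 and 9610.7 at day 2 in WT. The KO day 0 arrays had 12270.7 and 12651.9 and those of day 2 10984.6, 11756.6 and 12113.5. As deposited, the day 2 arrays of this representative probe set lay below the day 0 arrays in each genotype. At each day its KO arrays lay above the WT arrays, by small steps. After quantile normalization its days overlapped in KO, and the genotypes overlapped at day 0. As deposited, no change was called (-0.25 ± 0.13 in WT, limma adjusted p = 0.236; -0.10 ± 0.13 in KO, 0.694). After quantile normalization the WT change was called lower (-0.47, limma adjusted p = 0.0157), and the KO change turned to 0.07 (0.783). The other 3 retained probe sets had WT changes of -0.47, -0.64 and -0.53 and KO changes of -0.12, 0.35 and 0.42, none called. At day 0 their KO minus WT differences were -0.12, -0.21 and -0.55, also uncalled. In the last of the 3, the KO arrays lay below the WT arrays at day 0, and in KO day 2 lay above day 0. The second of these 3 was called higher in KO at day 2 with every retained probe set tested (0.78 ± 0.20, limma adjusted p = 0.0368), with signals of 1171.3 to 1383.7 in WT and 1776.3 to 2529.4 in KO.

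The remaining Slco members are Slco2b1 and Slco2a1, and the cells that express them were not measured here. Slco2b1, a carrier of steroid sulfates and drugs, had signals of 3958 and 3855.2 at day 0 and of 2240.2, 2203 and 2240.5 at day 2 in WT. KO day 0 arrays had 3791 and 3369.3, and KO day 2 arrays 2278.3, 1896.6 and 1880.4. The days did not overlap, and the genotypes overlapped at day 2. Slco2b1 fell 1.75-fold in WT (-0.81 ± 0.13, limma adjusted p = 0.00135) and 1.77-fold in KO (-0.83 ± 0.13, limma adjusted p = 0.00178), and both calls held in all 18 alternatives. The second probe set was lower at day 2 on every array too, by less and without a call (-0.28 ± 0.17 in WT, limma adjusted p = 0.327; -0.54 ± 0.17 in KO, 0.0807).

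Slco2a1 encodes the prostaglandin transporter, known in endothelial cells. Its signals were 2386.6 and 2388.4 at day 0 and 1802.3, 1570.1 and 1864.1 at day 2 in WT. The KO day 0 arrays had 2532.9 and 1540.8 and those of day 2 1210.5, 1388.6 and 1466.8. No day 2 array reached a day 0 array of its genotype. The change was -0.45 ± 0.19 in WT (limma adjusted p = 0.146) and -0.54 ± 0.19 in KO (limma adjusted p = 0.104), not called. Without KO day 0 replicate 2, the lower array, the KO value was -0.90 and was called (limma adjusted p = 0.0064). The WT value was called without KO day 0 replicate 1 (limma adjusted p = 0.0365) or 2 (0.0358), through the shared spread. Over 18 alternatives the KO value ran from -0.90 to -0.19.

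The 3 dimmer probe sets of Slco2a1 had changes between -0.33 and -0.03 in WT and between -0.47 and 0.01 in KO, none called. Of 12 sinusoidal endothelial markers, all measured, Clec4g and Cdh5 fell in WT and Oit3 fell in KO. Of all genes, 5.38% were called lower in WT and 4.49% in KO. The summed signal of the 12 markers in WT was 13560.2 to 13908.2 at day 0 and 10686.5 to 11619.4 at day 2. In KO it was 13068.8 to 16016.9 at day 0 and 11813.1 to 13884.6 at day 2. The part of these markers in the Slco2a1 values was not tested.

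Slc10a1, the sodium-coupled bile acid carrier NTCP, was among the bright genes of the arrays. Its signals were 20658.3 and 20439.3 at day 0 and 14540.5, 13160.2 and 17487.1 at day 2 in WT. The KO arrays had 21832 and 21459.4 before TCPOBOP and 16370.2, 16302.3 and 16476.5 at day 2. The days did not overlap in either genotype, the KO day 2 arrays lay within a narrow range, and the genotypes overlapped at day 2.

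Slc10a1 fell 1.37-fold in WT (-0.46 ± 0.13, limma adjusted p = 0.0342), and its KO change of -0.40 ± 0.13 was not called (limma adjusted p = 0.0732). The 152 genes of its brightness class, with a mean log2 signal over 14, had a median change of 0.16 in WT and of -0.42 in KO. The WT call was lost in 7 of 18 alternatives, over which the limma adjusted p ran from 0.00041 to 0.187. Among them were leaving out WT day 0 replicate 1 (limma adjusted p = 0.167) or 2 (0.158), WT day 2 replicate 1 (0.0912) or 2 (0.0890), and centring on the array median (-0.33, 0.187). It was lost too without KO day 2 replicate 1 (0.0539) or 2 (0.0600), and the KO change was called without WT day 2 replicate 3 (0.0447). After quantile normalization the changes were -0.72 in WT (limma adjusted p = 0.00148) and -0.12 in KO (0.579). The second probe set was called lower in WT (-0.54 ± 0.15, limma adjusted p = 0.0419), and in KO, where its days overlapped, its change was -0.15 ± 0.15 (0.649).

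**Figure D3:**
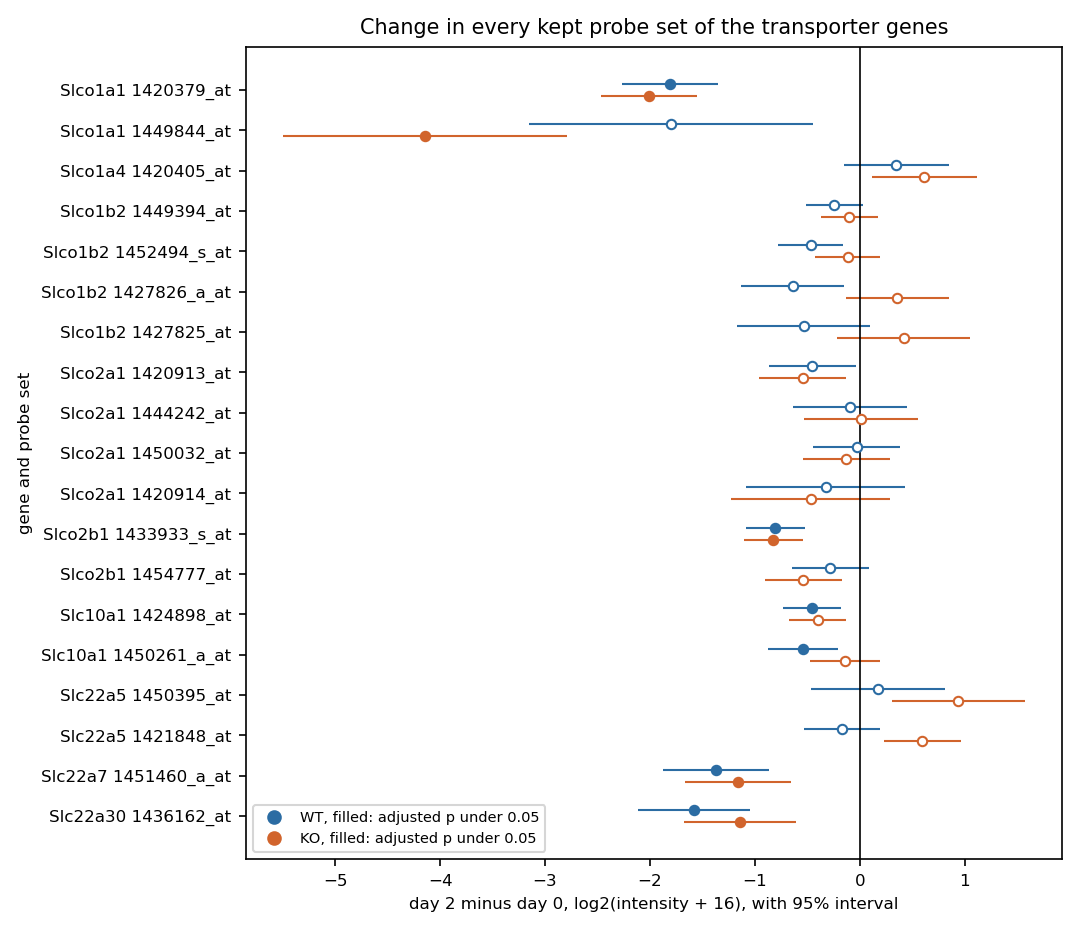
Change from day 0 to day 2 in log2(intensity + 16), with its 95% interval, for the 19 retained probe sets of the 9 genes, WT in blue and KO in orange; filled points have a limma adjusted p under 0.05 with every retained probe set tested. The points of Slco1a1, Slco2b1, Slc22a7 and Slc22a30 lie left of 0, and no filled point lies to the right.

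Of the 3 Slc22 carriers, Slc22a7 and Slc22a30 were called lower in both genotypes and Slc22a5 was called in neither. Slc22a7, which encodes the organic anion transporter OAT2, had signals of 1179.9 and 1405.9 at day 0 and of 525.8, 347.9 and 634.8 at day 2 in WT. KO had 1113.2 and 1037.3 at day 0 and 504, 456.7 and 459.5 at day 2. Day 2 lay below day 0 in both genotypes, and the genotypes overlapped at day 2. Slc22a7 fell 2.59-fold in WT (-1.37 ± 0.23, limma adjusted p = 0.00228) and 2.23-fold in KO (-1.16 ± 0.23, limma adjusted p = 0.00852). The KO call was lost without KO day 0 replicate 1 (-1.11, limma adjusted p = 0.0517).

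Slc22a30, another member of the family, had signals of 3657 and 2846.3 at day 0 and of 1138.6, 721.1 and 1470.5 at day 2 in WT. KO had 4177.1 and 3719.9 at day 0 and 1556.1, 1989.5 and 1816.1 at day 2. The days did not overlap, and on both days the lowest KO array lay above the highest WT array. Slc22a30 fell 3.00-fold in WT (-1.58 ± 0.24, limma adjusted p = 0.00123) and 2.21-fold in KO (-1.14 ± 0.24, limma adjusted p = 0.0127). The KO call was lost without KO day 0 replicate 1 (-1.06, limma adjusted p = 0.0741) and without trend and robust moderation (0.0533). Probes of near-identical Slc22 genes can read more than 1 gene, and a probe set annotated to Slc22a30 and Slc22a29 together was left out.

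Slc22a5 encodes OCTN2, the sodium-dependent carnitine carrier. Its signals were 1362.8 and 727.5 at day 0 and 1157.7, 1258.7 and 977.4 at day 2 in WT. The KO day 0 arrays had 1058.7 and 530.3 and those of day 2 1319.4, 1490.4 and 1552.8. In KO each day 2 array lay above the day 0 arrays, and in WT the days overlapped. The change was 0.17 ± 0.29 in WT (limma adjusted p = 0.748) and 0.94 ± 0.29 in KO (limma adjusted p = 0.0702), neither called. The KO value was called without KO day 0 replicate 1 (1.42, limma adjusted p = 0.0155), without WT day 0 replicate 1 (0.0457) or 2 (0.0444), and with the mean of both probe sets (0.77, 0.0190). Over 18 alternatives the value ran from 0.45 to 1.42, always upward.

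The dimmer probe set of Slc22a5 had day 0 signals of 793.8 and 722.5 and day 2 signals of 680.8, 682.6 and 653.5 in WT. In KO they were 560 and 749.1 at day 0 and 961.7, 959.2 and 1042.8 at day 2. Every WT array was lower at day 2 than at day 0 and every KO array higher. With every retained probe set tested, its day 2 level in KO was above that in WT (0.54 ± 0.15, limma adjusted p = 0.0461), its change was -0.17 ± 0.17 in WT (0.573) and 0.60 ± 0.17 in KO (0.0524), and the difference between those changes was 0.76 ± 0.24 (0.106).

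The genotypes were set against each other directly at day 2, where the range of the arrays also differed. As deposited, Slco1a1 was the 1 member called, and none was called lower, against 5.23% of all genes; at an unadjusted p under 0.05, 3 members were higher, against 15.4% of all genes, and none lower, against 12.9%. After quantile normalization 4 members were called higher in KO by limma, where 3.52% of all genes were: Slco1a1 (1.15, adjusted p = 0.00819), Slco1b2 (0.63, 0.00795), Slc10a1 (0.51, 0.016) and Slc22a30 (0.79, 0.0449). As deposited, the last 3 had differences of 0.35 ± 0.11 (limma adjusted p = 0.0716), 0.13 ± 0.11 (0.465) and 0.73 ± 0.22 (0.0562).

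The Slc22a30 difference was called as deposited without WT day 2 replicate 3 (0.96, limma adjusted p = 0.0316). That of Slco1b2 was called without KO day 0 replicate 1 (0.0497) or 2 (0.0494). With all arrays, Slco1b2 was called with the mean of its probe sets (0.44, limma adjusted p = 0.0485) and with array weights (0.35, 0.0429). Slc22a30 was called with array weights too (0.77, limma adjusted p = 0.0285). For Slc10a1 the direction itself depended on the scaling, being -0.04 after centring on the array median. The brightness class of Slc10a1 had a median KO minus WT difference of -0.41 at day 2, and the 216 in the class of Slco1b2 one of -0.28. The hepatocyte markers, Alb and Apoa1 among them, were lower likewise: 4 of 7 were called lower in KO at day 2 as deposited, and after quantile normalization 1 of 7 was called, higher. Their part in the members' differences was not tested.

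**Figure D4:**
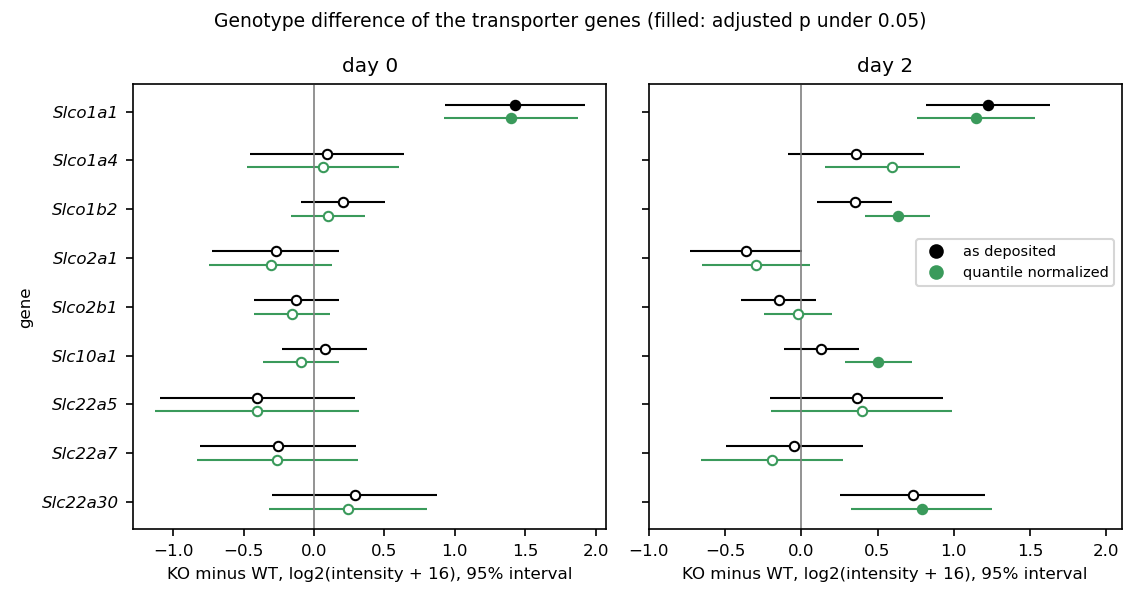
KO minus WT difference in log2(intensity + 16), with its 95% interval, for the 9 genes at day 0 and day 2, as deposited (black) and after quantile normalization (green); filled points have a limma adjusted p under 0.05. Slco1a1 is filled at both days on both scales (1.42 and 1.22 as deposited), and Slco1b2, Slc10a1 and Slc22a30 are filled at day 2 after quantile normalization.

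For 4 members, Slco1a1, Slco1b2, Slc22a5 and Slc22a30, all KO arrays lay above all WT arrays at day 2, as did those of 20.1% of all genes; for Slco2a1 all lay below, as for 16.1%. At day 0, 4 members lay above (16.6% of all genes) and 2 below (19%). The members' median difference, KO minus WT, was 0.35 at day 2 and 0.07 at day 0, beside 0.09 and -0.03 over all genes. After quantile normalization the members' values were 0.51 and -0.09, so the direction at day 0 turned.

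Whether the response itself differed between the genotypes was tested as the change in KO against the change in WT. By limma 0 of the 9 members were called, against 3.15% of all genes, and 0 had an unadjusted p under 0.05, against 21% of all genes. Of the 19 retained probe sets, 4 had an unadjusted p under 0.05, against 19.8% of all retained probe sets, and none was called: the dimmer ones of Slco1a1 (-2.34 ± 0.88, limma adjusted p = 0.170) and Slc22a5, and 2 of Slco1b2 (0.99 ± 0.32, 0.116, and 0.95 ± 0.41, 0.229). Among the representative probe sets the widest difference was that of Slc22a5, 0.76 ± 0.41 (limma adjusted p = 0.310, 95% interval from -0.13 to 1.66). For Slco2b1 it was -0.02 ± 0.18, with an interval from -0.41 to 0.37. After cyclic loess normalization Slc10a1 was called (0.64, limma adjusted p = 0.0492), and after centring on the array median its value was -0.13. For Slco1b2 it was 0.14 ± 0.18 as deposited, -0.04 after centring and 0.53 after quantile normalization (0.0930).

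The day 1 pools, 1 array a genotype and so without a test, already stood below day 0 for some members. Slco1a1 had 557.5 in the WT pool and 1057.3 in the KO pool, 3.00-fold and 4.31-fold below the day 0 means. Slc22a7 had 519.9 and 275.2, 2.43-fold and 3.74-fold below. These 2 members were past 2-fold lower in each genotype, where 6.98% of all genes in WT and 6.74% in KO were, and 0 members were past 2-fold higher, against 6.35% and 6.11%. These counts use the representative probe sets. A dimmer Slco2a1 probe set was also past 2-fold lower in the KO pool (-1.01, beside -0.04 in WT).

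Slco2b1 had 2260.7 in the WT pool, just over its highest day 2 array, and 2073.2 in the KO pool, within its day 2 range, log2 differences of -0.78 from day 0 in each genotype. Slc22a30 had 2212.7 and 2000.8, between the WT day 0 and day 2 arrays and, in KO, above the highest day 2 array of 1989.5. Slc10a1 had 18810.1 and 18119.1, between day 0 and day 2 in each genotype. Slco1a4 had 5530.3 and 4575.4, both above the day 0 arrays. Between the pools no representative probe set of a member was past 2-fold, against 4.08% of all genes higher and 5.11% lower in KO. Slco1a1 came nearest at 0.90, then Slc22a7 at -0.88. The dimmer Slco1a1 probe set was past 2-fold, with 219.2 in the KO pool and 67.8 in the WT pool (1.49).

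The pattern over the 12 arrays was compared with that of every other tested gene by Pearson r of the log2 values, a description over arrays that share their groups. For Slco1a1 the 5 most alike were Tcf7l2 (r = 0.93), a Wnt pathway transcription factor, Gm4951 (0.93), Keg1 (0.93), Spag9 (0.92) and Oxr1 (0.92). For Slc10a1 they were the member Slc22a30 (r = 0.96), then Rgn (0.95), which encodes regucalcin, Mat1a (0.95), the liver enzyme that makes S-adenosylmethionine, Hgfac (0.94), the activator of hepatocyte growth factor, and Acad8 (0.94). For Slco1a4 the highest was lower, Trpd52l3 (r = 0.88), before Ncald (0.87), Malsu1 (0.86), Slc35b3 (0.84) and Tacr3 (0.84).

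The other carriers of the 3 families were mostly not called. Of 27 listed, 16 were measured, and 1 rose and 1 fell in WT: Slc22a18 rose (0.80 ± 0.18, limma adjusted p = 0.0122) and Slc22a12 fell (-0.57 ± 0.17, 0.0496; not called after quantile normalization). In KO 1 rose, Slc10a2, the sodium-coupled bile acid carrier best known from the ileum (1.81 ± 0.49, limma adjusted p = 0.0399). The Slc10a2 signals in KO were 54.5 and 72.2 at day 0, under the array median. At day 2 they were 270.7, 264.4 and 248.8, about that median. Slc10a2 passed the filter only through arrays after TCPOBOP. In WT its day 2 arrays also lay above day 0, with an uncalled change of 1.025 ± 0.49 (limma adjusted p = 0.2045). Slco1a6, a further gene of the Slco1 cluster, had changes of -1.50 ± 0.61 in WT (limma adjusted p = 0.136) and -0.70 ± 0.61 in KO (0.555). The list's median was 0.06 in WT and 0.16 in KO, beside -0.11 and 0.05 over all genes. Of all genes, 7.26% were called higher and 5.38% lower in WT, and 4.2% higher in KO.

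Carriers of other families on the same membrane moved in part with the set. Of 16 measured, 4 fell and 2 rose in WT, and 5 fell in KO. Over all genes 5.38% were called lower and 7.26% higher in WT, and 4.49% lower in KO. Slc2a2, the glucose carrier GLUT2, fell in WT (-1.87 ± 0.22, limma adjusted p = 0.000175), and its KO change of -0.70 was not called (0.0693). Slc38a3, a glutamine carrier, fell in WT (-1.29) and KO (-0.80), and so did Slc7a2, a carrier of cationic amino acids (-1.01 and -0.86), all with a limma adjusted p under 0.05. The KO call of Slc38a3 was lost after quantile normalization (-0.52, limma adjusted p = 0.0721). Slc16a10, a carrier of aromatic amino acids, rose in WT (1.01 ± 0.26, limma adjusted p = 0.0248). Slc27a2, which takes up and activates fatty acids, fell in WT (-0.77, limma adjusted p = 0.00431) and KO (-0.87, 0.00301). Cd36, a fatty acid receptor and carrier, fell in KO (-1.50, limma adjusted p = 0.0103), and its WT change was -0.69 (0.178). The median was -0.54 in WT and -0.38 in KO, beside -0.11 and 0.05 over all genes.

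Among 11 genes of bile acid synthesis, conjugation and export, all measured, 3 rose in each genotype. These were the efflux pumps Abcc4 (2.41 in WT and 2.34 in KO), Abcc2 (1.72 and 1.47) and Abcc3 (1.65 and 1.24), with limma adjusted p from 5.82e-06 to 6.29e-05. Abcc3 and Abcc4 pump organic anions back to blood, and Abcc2 into bile. Over all genes 7.26% were called higher and 5.38% lower in WT, and 4.2% and 4.49% in KO. In WT 1 gene fell, the bile acid activating enzyme Slc27a5 (-0.67, limma adjusted p = 0.0290). In KO 4 fell: Cyp8b1, the sterol 12-alpha-hydroxylase (-2.05 ± 0.52, limma adjusted p = 0.0343), Slc27a5 (-1.11), Baat, which conjugates bile acids (-1.02), and Cyp7b1 (-0.86).

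Of 22 measured regulators of hepatocyte carrier genes, 5 fell and 1 rose in WT, and 6 fell and 1 rose in KO. The shares of all genes were 5.38% lower and 7.26% higher in WT, and 4.49% and 4.2% in KO. Ppara, the fatty acid sensing receptor, fell in WT (-2.02 ± 0.21, limma adjusted p = 7.66e-05) and KO (-1.18 ± 0.21, 0.00415). Ghr, the growth hormone receptor, fell in WT (-1.49) and KO (-1.11), with a limma adjusted p of 0.000283 and 0.00294. Cebpa, a hepatocyte transcription factor, fell in WT (-0.97, limma adjusted p = 0.00135) and KO (-0.89, 0.00349). Nr0b2, the bile acid responsive repressor SHP, fell in WT (-0.90, limma adjusted p = 0.00864), and its KO change was 0.16 (0.681). In KO, Bcl6, a repressor, rose (1.96 ± 0.40, limma adjusted p = 0.00939) and Foxa3 fell (-0.93 ± 0.20, 0.0147). The mean log2 signals of Bcl6 were 7.28 at day 0 and 9.24 at day 2 in KO, and 8.95 and 8.68 in WT. Its day 0 genotype difference was -1.67 after quantile normalization and was not called (limma adjusted p = 0.277).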

How the data were processed

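The values are probe set signal intensities made by the authors with MAS5, per the submitters' processing notes, which give no version. No further scaling was applied to them before taking log2 of the intensity plus 16. By the platform annotation, 34945 of the 45101 probe sets name a single gene; 932 with more genes, 64 controls and 9160 without a name were not tested. A probe set was retained when it passed the median of its array on 2 or more of the 12 arrays, and the brightest retained probe set stood for its gene.

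The test was limma 3.58.1 under R 4.3.3, with 1 fit of 6 group means (trend and robust moderation, 6 residual degrees of freedom, two-sided). Benjamini-Hochberg adjustment ran over all 14102 genes, with calls at an adjusted p under 0.05. Every retained probe set was also tested on its own. The day 1 pools were not tested; they were counted past 2-fold. The fit was tested on simulated data for the change in WT alone, with log2 changes larger than those of Slc10a1 and Slco1b2. The genotype comparisons and the difference of responses were not simulated. The number of arrays limits the precision. Figures used Python 3.11.15 and matplotlib 3.10.9. Sequences are from RefSeq, GRCm38.p6, and positions of the probes were not used.

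The members and lists were chosen with earlier results of these data known. Named are all members with every retained probe set, Yap1, and up to 4 called genes with the widest change per pathway list and genotype. The rule also names the 5 genes most alike in pattern for 3 members. Slco1a6, Slc22a29, Clec4g, Cdh5, Oit3, Alb, Apoa1 and Serpina1c were named outside that rule, after their values were seen. So were Baat, Cyp7b1 and Slc27a5 where they complete a count. Alternatives were quantile, cyclic loess and median scaling, other pseudocounts, filters, probe set rules, moderation and array weights, only the arrays compared, the replicate number as a block, and leaving out each array. Where that left a single day 0 array, it was taken to vary as the other groups do.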

Additional observations from a re-analysis of the deposited data

Results flagged for a closer look

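In the dimmer Slc22a5 probe set every WT array was lower at day 2 than at day 0 and every KO array was higher. The change in KO minus the change in WT was 0.76 ± 0.24 on the log2 scale and was not called with every retained probe set tested (limma adjusted p = 0.106). In the brighter probe set the same difference was 0.76 ± 0.41, and its WT days overlapped.

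The probe set annotated to Slc22a30 and Slc22a29 together entered no comparison. In KO its day 0 signals were 171.5 and 169.4 and its day 2 signals 308.4, 269.1 and 337.2, a log2 difference of 0.78 upward, against the fall of the Slc22a30 probe set. In WT they were 183.3 and 286.4 at day 0 and 262.8, 197.8 and 183.7 at day 2, which overlap. The pools had 263.6 in WT and 315.5 in KO. The difference was not tested. A probe set of Slc22a29 alone had uncalled changes of 0.69 ± 0.27 in KO (limma adjusted p = 0.151) and 0.50 ± 0.27 in WT (0.264).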

How the results depend on the processing

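Over the alternatives, 791 of the members' values kept direction and side of the threshold, 20 lost a call, 18 gained one and 26, none of them called, changed sign. Genes called in KO numbered 801 with only the arrays compared. Between the genotypes at day 2, called members numbered 4 after quantile or cyclic loess normalization and 3 with array weights, and genes 748 without trend and robust moderation. At day 0, 0 members were called with no filter, the mean of probe sets, plain moderation, only the arrays compared, array weights or the replicate block, and genes called numbered 24 as reported, 9 with no filter, 0 with plain moderation, 0 with only the arrays compared, 4 with array weights and 8 with the block. For the difference of responses, 444 genes became 288 after quantile normalization, 275 with no filter, 76 with plain moderation and 286 with the block, and 1 member was called after cyclic loess.

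With 1 array left out, genes called ranged from 880 to 1458 in WT, 777 to 1253 in KO, 408 to 979 at day 2, 7 to 134 at day 0 and 57 to 698 for the difference. Members ranged from 4 to 5, 3 to 5, 1 to 2, 0 to 1 and 0 to 0.

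Signs turned for these uncalled values. Slco1b2 in KO became 0.066 after quantile normalization, 0.092 after cyclic loess and 0.14 with the mean of probe sets. Between the genotypes, Slc10a1 became -0.042 after centring at day 2, and -0.094 after quantile normalization and -0.086 after cyclic loess at day 0; with the mean of probe sets Slco1b2 became -0.17 and Slco2a1 0.0088 at day 0. For the difference of responses, Slco2a1 became 0.0095 and Slco2b1 0.14 after quantile normalization, Slco2b1 0.12 after cyclic loess, and Slco1b2 -0.044 and Slc10a1 -0.13 after centring. With 1 array left out, Slc22a5 ranged from -0.27 to 0.62 in WT and from -0.89 to 0.086 at day 0, Slc22a7 from -0.28 to 0.14 at day 2, and Slco2a1 from -0.63 to 0.085 at day 0. The ranges for the difference were -0.47 to 0.064 for Slco1a1, -0.45 to 0.26 for Slco2a1, -0.11 to 0.065 for Slco2b1, -0.036 to 0.17 for Slc10a1 and -0.022 to 0.40 for Slc22a7. The causes were not tested.

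Deviations of same-numbered arrays of the 2 genotypes correlated at -0.015 at day 0 and 0.034, 0.026 and 0.0041 at day 2. Between the days of a genotype they correlated from -0.018 to 0.023. In a group of 2 arrays the deviations mirror each other, so the values that involve day 0 cannot show whether replicate numbers pair the arrays. At day 2, differently numbered arrays of the 2 genotypes correlated from -0.058 to 0.031. Whether the replicate numbers pair the day 2 arrays was not tested. With the replicate block the day 0 difference of Slco1a1 was 1.42 and was not called (limma adjusted p = 0.0678), and no other call of a member changed. The falls of Slco1a1 and Slco2b1 kept their calls in all 18 alternatives in each genotype. The change of the dimmer Slco1a1 probe set had an SE of 0.62, and that of the bright Slc10a1 one 0.13. For Slc22a5 the dimmer probe set had the smaller SE, 0.17 against 0.29. Whether signal sets the SE was not tested.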
